A study of Mus musculus with 2 samples.

Results

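Osteopontin (Spp1) was the one of 8 scar- and lipid-associated macrophage genes that stood at least 2-fold higher in cardiac macrophages after pressure overload, and it also appeared in a small set of fibroblasts that held almost none of it after sham surgery. The 8 genes are Spp1, Trem2, Gpnmb, Lpl, Cd9, Cd63, Lgals3 and Apoe, chosen by symbol from 31053 genes, and all 8 were found in both libraries. Non-cardiomyocytes of male C57BL6/J wild-type mouse hearts were compared on day 20 after sham surgery and after transverse aortic constriction (TAC), in which a tie around the aortic arch forces the left ventricle to pump against raised pressure. Viable, DAPI-negative cells were sorted and captured as 1 droplet library per group. The labels state neither the age nor how many hearts went into a library. Every difference therefore lacks a check by replicates, and none was tested. Cardiomyocytes were settled out before the sort, and the 19 sham and 32 TAC cells with a cardiomyocyte profile are a remainder.

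These genes are the recurring signature of macrophages found in scars, atherosclerotic plaques, adipose tissue and diseased brain. Macrophages that take up debris and lipid engage the lipid-sensing receptor TREM2, carry cholesterol with apolipoprotein E, enlarge their lysosomes and secrete osteopontin and galectin-3, which act on fibroblasts and matrix. In the heart the resident macrophages that express the phosphatidylserine receptor Timd4 renew locally, whereas those with the chemokine receptor Ccr2 are replaced from blood monocytes.

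Values are unique molecular identifiers (UMIs, each 1 counted RNA molecule) summed over the cells of a class and given as counts per 1000000 UMIs of that class (CPM). Counting used 3′ ends, so CPM compares molecules and needs no correction for gene length. Intervals are exact 95% intervals for counting error only. Classes were gated on marker genes that exclude the 8. Macrophages held the complement genes C1qa, C1qb and C1qc besides general phagocyte genes, and numbered 1060 of 7964 sham cells (13.3%) and 781 of 8000 TAC cells (9.76%). The median depth of macrophages was 4534 UMIs (sham) and 9036 UMIs (TAC), and the libraries shared 15 cell barcodes. All 10 phagocyte markers and all 3 C1q genes were present in both, with C1q genes summing to 16988 CPM in sham and 18683 CPM in TAC macrophages. RNA of other classes was present at lower levels. Lymphoid markers summed to 774 CPM in sham and 620 CPM in TAC macrophages, of which the immunoglobulin gene Ighm made up 489 and 334 CPM, against 17447 and 13490 CPM of lymphoid markers in B cells. Fibroblast markers summed to 250 CPM in sham and 342 CPM in TAC, against 35612 and 33946 CPM in fibroblasts. None of the 6 monocyte markers was at 0, and their sum went from 46.2 CPM in sham to 193 CPM in TAC macrophages.

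Spp1 encodes osteopontin, a secreted phosphoprotein that binds integrins and CD44; the gene (ENSMUSG00000029304) spans chr5:104435118-104441050 in mm10. Sham macrophages held 90 Spp1 UMIs, or 14.2 CPM (11.4 to 17.4), and TAC macrophages held 2489 UMIs, or 246 CPM (236 to 256). The TAC level was 17.3-fold higher (14.0 to 21.6). Of 3141 genes at 50 CPM or more in either library, 76 were at least 2-fold higher in TAC macrophages, a background of 2.42%, and Spp1 was the 1 member among them. Gpnmb lay under that minimum, so 7 of the 8 could be counted.

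The Spp1 molecules were held by few cells. One TAC macrophage carried 1368 of the 2489 UMIs, 55.0% of the total, and one sham macrophage carried 37 of 90, or 41.1%. Without the top cell of each library the levels were 8.38 CPM in sham and 111 CPM in TAC macrophages, a 13.3-fold difference (10.1 to 17.9). The top TAC cell held 66396 UMIs in all, the eleventh highest of the TAC macrophages, with 235 C1qa UMIs, 68 Ccr2 UMIs, 80 Arg1 UMIs and 87 Fn1 UMIs. In all, 24 TAC macrophages held 10 or more Spp1 UMIs, against 1 in the sham library. These counts are not matched for depth, and TAC macrophages were deeper. The share of cells does not depend on the top cell. With each cell thinned to 3200 UMIs, 18 of 856 sham macrophages (2.10%, 1.25 to 3.30) and 95 of 742 TAC macrophages (12.8%, 10.5 to 15.4) had an Spp1 UMI. Before thinning the shares were 3.40% and 23.8%. Thus the level and the share of cells both separated the libraries beyond counting error.

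**Figure D1:**
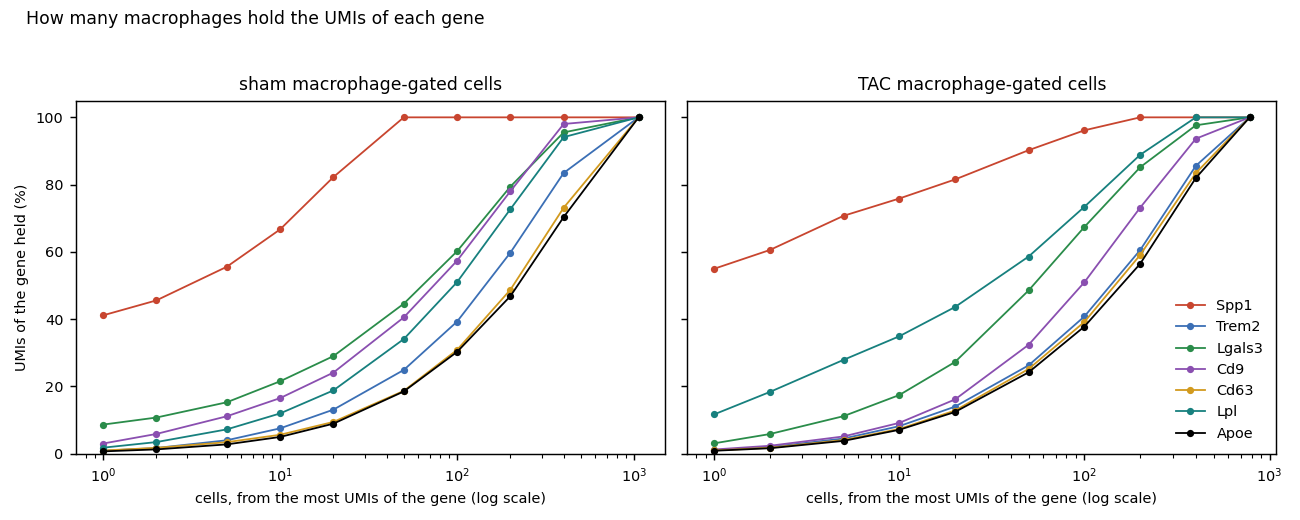
Share of a gene's UMIs (y axis, percent) held by the macrophages richest in it, counted from the top cell (x axis, log scale), for 7 genes in the sham and TAC libraries. Gpnmb is left out because a single sham cell held all of its 20 UMIs. The Spp1 line starts at 41.1% in sham and 55.0% in TAC, while Trem2, Cd63 and Apoe start under 1%.

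Lgals3 encodes galectin-3, a secreted lectin that binds glycans on cells and matrix (ENSMUSG00000050335, chr14:47367751-47386160). Its level was 278 CPM in sham macrophages (265 to 291) and 401 CPM in TAC macrophages (389 to 414), 1.44-fold higher (1.36 to 1.53). At equal depth the shares of cells with a UMI were 38.7% (35.4 to 42.0) and 43.7% (40.1 to 47.3), with intervals that meet.

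Among the membrane proteins, Trem2, the lipid-sensing receptor that signals through the adaptor Tyrobp (ENSMUSG00000023992, chr17:48346401-48354147), stood at 227 CPM in sham macrophages (215 to 239) and 349 CPM in TAC macrophages (337 to 361). The TAC level was 1.54-fold higher (1.45 to 1.64), and the share of cells at equal depth was 48.2% (44.9 to 51.7) in sham and 62.8% (59.2 to 66.3) in TAC. Trem2 was spread over many cells, with no TAC macrophage holding more than 35 of its 3531 UMIs. Cd9, a tetraspanin that organises membrane microdomains (ENSMUSG00000030342, chr6:125460266-125494791), stood at 216 CPM in sham (205 to 228) and 349 CPM in TAC (337 to 360), 1.61-fold higher (1.52 to 1.72). Its share of cells at equal depth was 30.4% in sham (27.3 to 33.6) and 51.6% in TAC (48.0 to 55.3). Cd9 therefore had a larger gap in the share of positive macrophages than Trem2. The folds of their full-depth levels were alike, but at equal depth the log2 ratio was 0.97 for Cd9 and 0.65 for Trem2.

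Cd63 encodes a tetraspanin of late endosomes and exosomes (ENSMUSG00000025351, chr10:128900989-128912822). It stood at 553 CPM in sham macrophages (535 to 571) and 669 CPM in TAC macrophages (653 to 685), 1.21-fold higher (1.16 to 1.26). About equal shares of cells had a UMI at equal depth, 78.6% in sham (75.7 to 81.3) and 80.2% in TAC (77.1 to 83.0).

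Gpnmb encodes a transmembrane glycoprotein of lysosomes and phagosomes that marks lipid-laden macrophages in many tissues (ENSMUSG00000029816, chr6:49036546-49070929). Only 20 UMIs were counted in sham macrophages, 3.15 CPM (1.93 to 4.87), and 13 in TAC macrophages, 1.28 CPM (0.684 to 2.20). All 20 sham UMIs came from 1 cell, the same cell that held the most sham Spp1. That cell of 16539 UMIs also carried 152 Lgals3, 39 Cd9, 32 Cd63, 11 Trem2 and 197 Fabp5 UMIs, Fabp5 being a fatty-acid binding protein. No other sham macrophage had a Gpnmb UMI, while 8 TAC macrophages had 1 to 4 each. One sham macrophage thus carried 7 of the members at 9 or more UMIs each besides 124 Apoe UMIs, and macrophages with Gpnmb were close to absent from both libraries at this depth.

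Lpl encodes lipoprotein lipase, which releases fatty acids from circulating triglycerides (ENSMUSG00000015568, chr8:68880491-68907448), and was the member with a lower TAC level that rested on many cells. It stood at 180 CPM in sham macrophages (169 to 190) and 117 CPM in TAC macrophages (110 to 124), a 1.54-fold lower level in TAC (1.41 to 1.67). The share of cells at equal depth went from 32.9% (29.8 to 36.2) to 19.5% (16.7 to 22.6). One TAC macrophage held 138 of 1184 Lpl UMIs, 11.7%, and without the top cells the TAC level was 1.71-fold lower (1.57 to 1.86). Apoe, the apolipoprotein that carries cholesterol out of macrophages (ENSMUSG00000002985, chr7:19696109-19699188), was by far the most abundant member. Its level was 16459 CPM in sham macrophages (16359 to 16559) and 18211 CPM in TAC macrophages (18128 to 18295), 1.11-fold higher (1.10 to 1.11), and 98.1% and 98.7% of cells had a UMI at equal depth. The median log2 ratio over all 3141 genes was -0.08, so a shift of this size bears on the Apoe and Cd63 values.

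**Figure D2:**
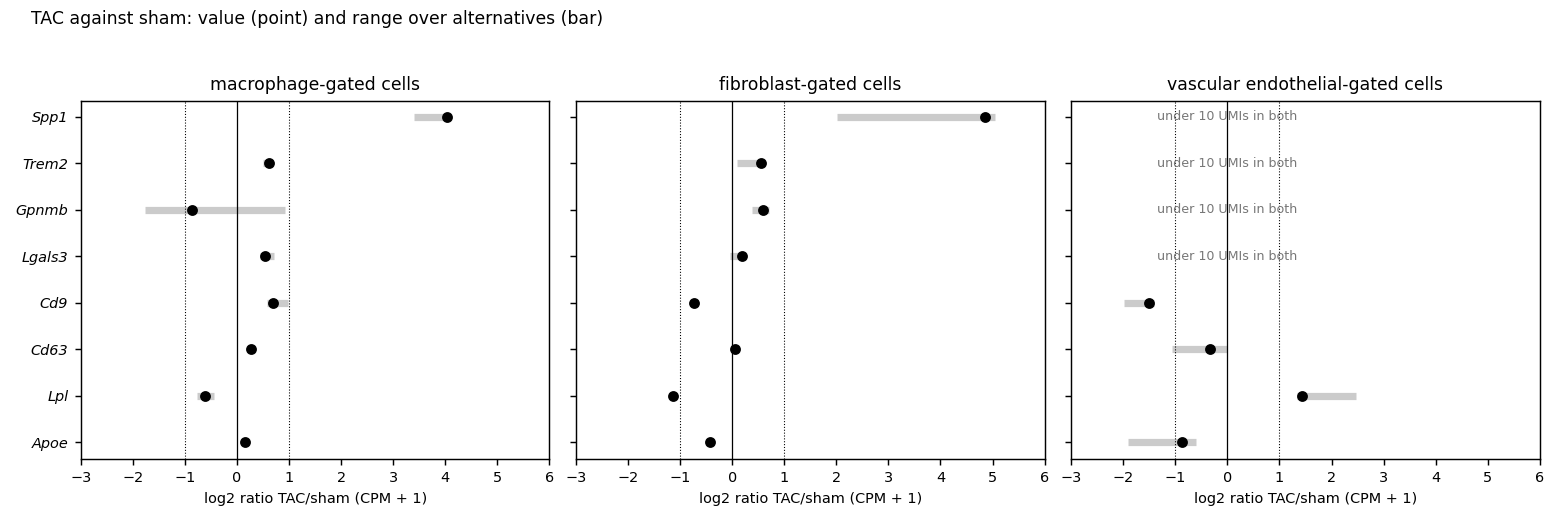
Log2 ratio TAC/sham of each gene (x axis, CPM + 1) in macrophage-, fibroblast- and vascular endothelial-gated cells. Points are the reported values, grey bars the range over the alternative settings, and dotted lines mark 2-fold. In macrophages Spp1 alone lies past the upper dotted line, and the bar of Gpnmb crosses 0.

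The letters before the start sites are shown for Spp1 and Trem2, which were both higher in TAC macrophages, and for Gpnmb, which was near absent from them. They are the 250 bases before the RefSeq start, from RefSeq (GRCm38.p6), written 5′ to 3′ on the gene's own strand, the plus strand in all 3. Capitals mark matches on either strand to the PU box GAGGAA, bound by the myeloid factor PU.1, or to the AP-1 site TGANTCA. The windows are chr5:104434861-104435110 for Spp1, chr17:48346151-48346400 for Trem2 and chr6:49036268-49036517 for Gpnmb.
Spp1: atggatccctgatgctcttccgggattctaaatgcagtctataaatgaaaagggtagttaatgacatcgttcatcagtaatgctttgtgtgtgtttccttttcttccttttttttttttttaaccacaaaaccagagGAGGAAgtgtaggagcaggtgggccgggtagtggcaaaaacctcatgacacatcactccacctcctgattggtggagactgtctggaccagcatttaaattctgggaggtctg
Trem2: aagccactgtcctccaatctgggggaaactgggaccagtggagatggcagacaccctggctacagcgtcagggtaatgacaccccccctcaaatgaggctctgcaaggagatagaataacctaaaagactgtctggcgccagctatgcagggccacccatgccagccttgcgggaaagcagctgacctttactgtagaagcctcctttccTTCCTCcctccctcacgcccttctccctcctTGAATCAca
Gpnmb: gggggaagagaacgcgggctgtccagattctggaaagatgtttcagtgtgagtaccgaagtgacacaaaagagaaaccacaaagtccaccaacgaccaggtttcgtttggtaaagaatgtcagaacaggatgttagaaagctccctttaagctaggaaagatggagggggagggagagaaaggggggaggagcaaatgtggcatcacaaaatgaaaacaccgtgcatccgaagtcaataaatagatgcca
Spp1 held a PU box from base 113 to base 108 before the start. Trem2 held the reverse complement, TTCCTC, from base 40 to base 35, and an AP-1 match from base 9 to base 3. Gpnmb held neither. Of the 8 genes 7 had a window in the RefSeq table, and 4 of the 7 held a PU box (Spp1, Trem2, Cd63 and Apoe) against 23.3% of 32851 windows of the same length. AP-1 matches stood in 1 of 7 and in 6.75% of all windows. The E-box CATGTG, a target of the MiT/TFE factors that drive lysosomal genes, stood in 1 of 7 (Cd9) and in 12.3% of windows, and the palindrome CACGTG in 0 of 7 and 6.02%. None of these motifs overlapped another in the 3 windows shown, and a match describes letters, not binding.

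Across cell classes the 8 genes did not form 1 pattern. Trem2 and Apoe were highest in macrophages, Lgals3 in phagocytes with little C1q, Gpnmb in fibroblasts, Cd9 in endothelium, Cd63 in fibroblasts and mural cells, and Lpl in cardiomyocytes, fibroblasts and vascular endothelium. Trem2 reached 28.7 CPM (10.5 to 62.5) in the 41 sham and 40.4 CPM (22.1 to 67.8) in the 41 TAC phagocytes with little C1q, the next class in order in both libraries. Apoe was next highest in fibroblasts, at 3509 CPM in sham (3488 to 3529) and 2602 CPM in TAC (2590 to 2614). Both genes were thus separated from the next class by more than their counting intervals.

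Lgals3 stood at 1000 CPM (869 to 1146) in sham and 1463 CPM (1338 to 1596) in TAC phagocytes with little C1q. Those cells also had more dendritic-cell and monocyte marker RNA than macrophages, with 1268 and 656 CPM in sham and 817 and 1538 CPM in TAC. T or NK cells held 296 CPM of Lgals3 in sham (218 to 394) and 480 CPM in TAC (397 to 576), and in TAC the 58 neutrophils held 529 CPM (402 to 682). The T or NK interval met that of macrophages in both libraries, as did the neutrophil interval in TAC, so these classes are not ordered. Fibroblasts held only 4.38 CPM in sham (3.68 to 5.18) and 5.13 CPM in TAC (4.60 to 5.71). Before thinning, only 20.8% of the 48 sham and 26.8% of the 41 TAC T or NK cells had an Lgals3 UMI. The T or NK level was thus carried by a minority of cells. The gate kept T or NK cells with phagocyte marker RNA but little C1q in that class. By level, Lgals3 was present in phagocytes, neutrophils and some T or NK cells, and low in fibroblasts.

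**Figure D3:**
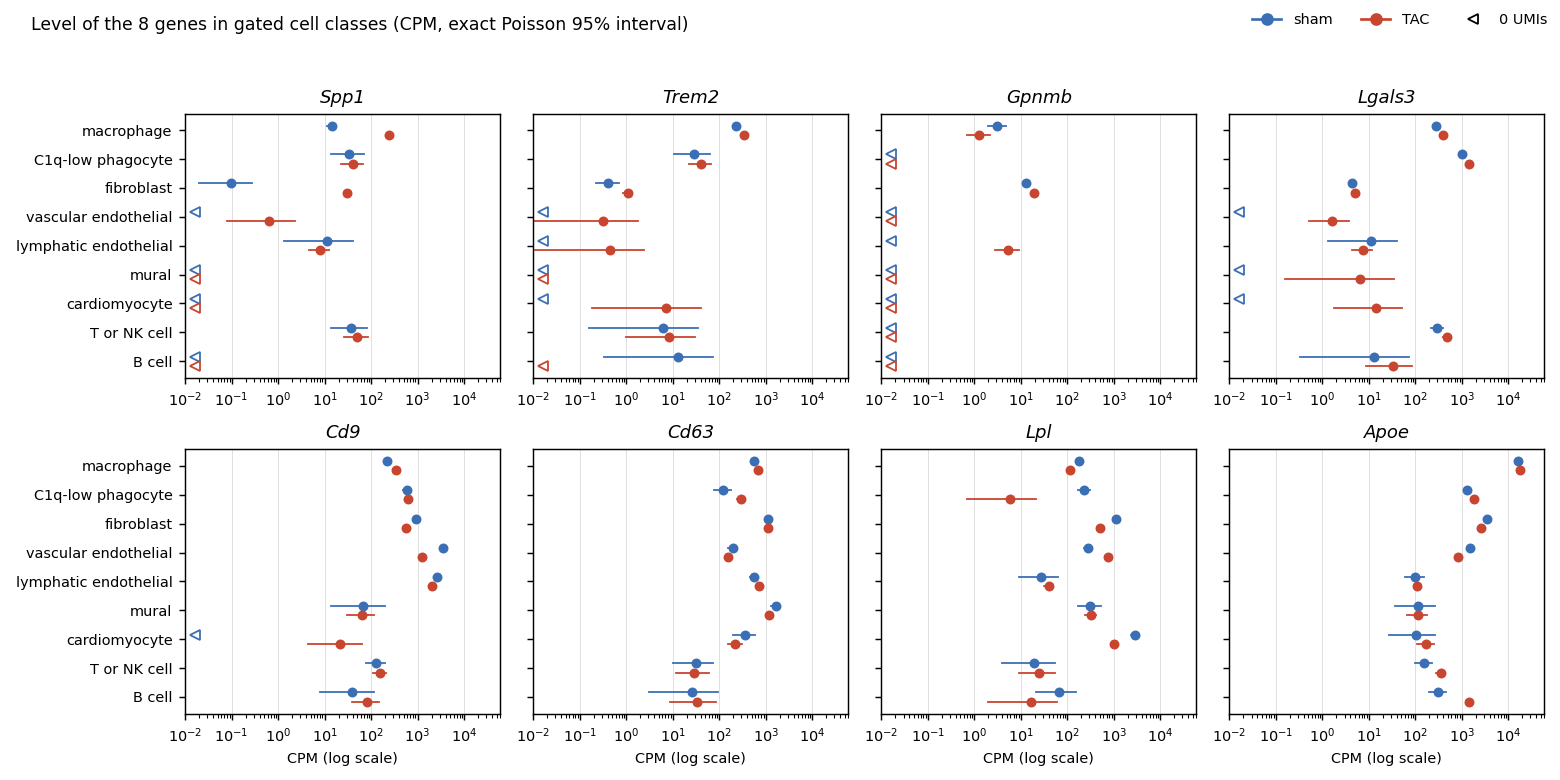
Level of each gene in 9 gated classes (x axis, CPM, log scale) with exact Poisson 95% intervals, sham in blue and TAC in red; open triangles mark 0 UMIs. Trem2 and Apoe are highest in macrophages, whereas Cd9, Cd63 and Lpl reach higher levels in other classes, and fibroblast Spp1 lies far to the right in TAC of its place in sham.

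By level, Spp1 in the TAC library was highest in macrophages, followed by T or NK cells at 49.7 CPM (25.7 to 86.8, 12 UMIs) and phagocytes with little C1q at 40.4 CPM (22.1 to 67.8, 14 UMIs). In sham those classes held 37.8 CPM (6 UMIs) and 33.5 CPM (7 UMIs), with intervals that meet that of macrophages. Fibroblasts, next in the TAC order, held many more Spp1 molecules in all. The 6125 sham fibroblasts held 3 Spp1 UMIs, 0.0953 CPM (0.0197 to 0.279), and the 5432 TAC fibroblasts held 2057 UMIs, 30.9 CPM (29.6 to 32.2). The ratio was 324, with a counting interval of 111 to 1572 that is wide because the sham count is 3. At equal depth 2 of 5480 sham fibroblasts (0.0365%, 0.00442 to 0.132) and 103 of 5241 TAC fibroblasts (1.97%, 1.61 to 2.38) had a UMI, and before thinning 0.0490% and 4.09%. For a gene that fibroblasts lack, Trem2, the shares were 0.146% and 0.229%, and 0.450% of TAC vascular endothelial cells had an Spp1 UMI. Had Spp1 entered TAC fibroblasts in its macrophage ratio to C1q RNA, its level would have been 0.376 CPM, and the measured level was 82.2 times that. That value takes Spp1 to go with C1q RNA in a fixed ratio, although 1 TAC macrophage held 1368 of the 2489 macrophage Spp1 UMIs. The source of Spp1 in TAC fibroblasts was not tested.

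The gate set a lower limit on fibroblast marker RNA in all fibroblasts, including the Spp1-positive ones. Cells that also passed the phagocyte limit were left out as mixed, which bounded phagocyte RNA in the class. The 222 TAC fibroblasts with a UMI had a median of 12760 UMIs in all, against 12068 in the 5210 without, and fibroblast markers summed to 35593 and 33869 CPM. Their C1q RNA was 44.4 CPM against 27.8 CPM, and Trem2 was 1.02 CPM against 1.07 CPM. Among them 35 cells held 10 or more Spp1 UMIs and the top cell held 210, or 10.2% of the total. Without it the TAC level was 27.7 CPM. Of the other members, Cd9 was 843 CPM in TAC fibroblasts with Spp1 and 546 CPM in those without, while Apoe was 1366 CPM and 2659 CPM. Spp1-positive fibroblasts therefore had more Cd9 and less Apoe RNA than the rest, with somewhat more C1q RNA and no more Trem2.

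Gpnmb was highest in fibroblasts in both libraries, with 399 UMIs in sham, 12.7 CPM (11.5 to 14.0), and 1312 in TAC, 19.7 CPM (18.6 to 20.8), 1.55-fold higher (1.39 to 1.74). Its shares of fibroblasts at equal depth were 3.54% (3.07 to 4.06) and 5.78% (5.16 to 6.45). No sham fibroblast held more than 3 Gpnmb UMIs and no TAC fibroblast more than 9, so this RNA was spread thinly over many cells. By level, Gpnmb was thus higher in fibroblasts than in macrophages in both libraries.

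Lpl was at least 2-fold lower in TAC fibroblasts, where 104 of 3531 genes were (2.95%) and 127 were at least 2-fold higher (3.6%); Spp1, Trem2, Gpnmb and Lgals3 lay under the 50 CPM minimum there. The level was 1139 CPM in sham (1128 to 1151) and 518 CPM in TAC (512 to 523), a 2.20-fold lower level (2.17 to 2.23), and the share at equal depth went from 87.3% to 68.5%. Fibroblast Cd9 was 926 CPM in sham (916 to 937) and 559 CPM in TAC (553 to 565), 1.66-fold lower (1.63 to 1.68), opposite in direction to macrophage Cd9. Cd63 was 1112 CPM in sham (1100 to 1124) and 1150 CPM in TAC (1142 to 1158), within 1.03-fold. Fibroblast Cd63 lay above macrophage Cd63 in both libraries.

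**Figure D4:**
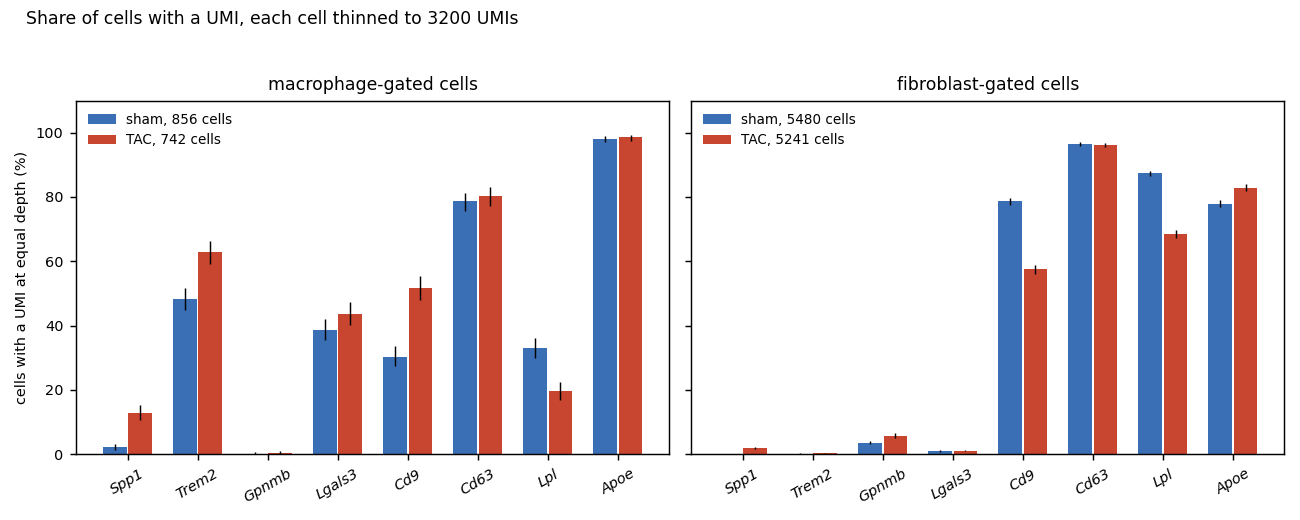
Share of cells with at least 1 UMI (y axis, percent) after thinning each cell to 3200 UMIs, with exact 95% intervals, in macrophage- and fibroblast-gated cells of the sham and TAC libraries. Cd9 is higher in TAC macrophages (51.6% against 30.4%) and lower in TAC fibroblasts (57.5% against 78.7%), and Lpl is lower in TAC in both.

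Vascular endothelial cells carried Lpl and Cd9 in opposite directions. Of 4221 genes in this class, 174 were at least 2-fold higher in TAC (4.12%) and 240 at least 2-fold lower (5.69%), and 1 member fell on each side. Lpl was 279 CPM in 174 sham cells (234 to 331) and 753 CPM in 622 TAC cells (723 to 784), 2.70-fold higher (2.26 to 3.23). Cd9 was 3579 CPM in sham (3412 to 3753) and 1255 CPM in TAC (1216 to 1295), 2.85-fold lower (2.69 to 3.02). Apoe was 1503 CPM in sham (1395 to 1617) and 825 CPM in TAC (793 to 857), 1.82-fold lower (1.68 to 1.98), and Cd63 was 194 CPM (156 to 238) and 154 CPM (141 to 168). Fibroblast marker RNA in these cells was 1420 CPM in sham and 858 CPM in TAC, endothelial marker RNA 17678 CPM and 30090 CPM, and haemoglobin RNA 117 CPM and 464 CPM. The gated class thus differed in make-up between the libraries, and the part of these shifts in the Lpl, Cd9 and Apoe values was not tested. Apoe ran from a log2 ratio of -0.60 to one of -1.91 over the alternatives, past 2-fold in 4 of 11, and only 49 sham cells reached the common depth. Spp1, Trem2, Gpnmb and Lgals3 were at 0 in the sham endothelial cells and at 0 to 5 UMIs in the TAC cells. For the sham zeros the floor of 3 counts is 6.25 CPM and the exact upper limit 7.69 CPM.

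In the smaller classes levels only are given. Lymphatic endothelial cells held Cd9 at 2642 CPM in 66 sham cells (2410 to 2890) and 2054 CPM in 280 TAC cells (1996 to 2114), the highest of any TAC class. Cardiomyocytes had the highest Lpl of all classes in both libraries, 2915 CPM in sham (2406 to 3499) and 1021 CPM in TAC (860 to 1204). Mural cells held Cd63 at 1643 CPM in 20 sham cells (1288 to 2066) and 1168 CPM in 39 TAC cells (1005 to 1350), the latter not separated from TAC fibroblasts. Phagocytes with little C1q had Lpl at 235 CPM in sham (174 to 310) and at 2 UMIs, 5.77 CPM (0.699 to 20.8), in TAC. Only 14.6% of the 41 sham cells held the 49 Lpl UMIs, and at equal depth 3 of 27 sham and 1 of 34 TAC cells had one, with intervals that meet. That difference in level was thus carried by a few cells.

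Within macrophages, groups were gated at equal depth on Timd4, Ccr2 and MHC class II genes, none of them a member. Timd4 cells made up 237 of 856 sham macrophages (27.7%) and 46 of 742 TAC macrophages, and Ccr2 cells 17.3% and 39.1%. Cells with MHC class II and neither gene made up 40.3% and 35.7%, cells low in MHC class II 11.1% and 18.6%, and cells with both Timd4 and Ccr2 3.62% and 0.404%. Gene names for the groups mark a detected UMI, so cells without a Timd4 or Ccr2 UMI can still express the gene.

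Spp1 was near absent from Timd4 macrophages in both libraries, with 6 UMIs in 237 sham cells, 3.96 CPM (1.45 to 8.61), and 5 UMIs in 46 TAC cells, 9.06 CPM (2.94 to 21.1). In Ccr2 macrophages it was 17.4 CPM in sham (10.7 to 26.5) and 393 CPM in TAC (375 to 411), 22.6-fold higher, but the TAC value held the 1368-UMI cell. Without the top cell it was 92.4 CPM, 5.32-fold above sham (3.44 to 8.69). In MHC class II macrophages it was 22.2 CPM in sham (16.4 to 29.3) and 107 CPM in TAC (372 UMIs), 4.80-fold higher (3.56 to 6.61). Without the top sham cell, which was in this group, the sham level was 5.48 CPM and the difference 19.5-fold. In the group low in MHC class II it was 3 UMIs in sham and 304 in TAC, 6.03 CPM (1.24 to 17.6) and 227 CPM (202 to 254), a ratio of 37.7 (12.8 to 184). By share of cells the TAC order was Ccr2 with 54 of 290 (18.6%, 14.3 to 23.6), MHC class II with 28 of 265 (10.6%, 7.14 to 14.9), MHC class II low with 12 of 138 (8.70%, 4.57 to 14.7) and Timd4 with 1 of 46 (2.17%, 0.0550 to 11.5). The level order of Ccr2 above the MHC class II group and the group low in MHC class II thus rested on 1 cell. Without that cell the Ccr2 level, 92.4 CPM, was under both. The other 2 groups kept their own richest cells there, so that comparison is unequal and sets no order. The richest 5 of all TAC macrophages held 70.7% of the Spp1 UMIs, and how far the levels of the other groups rest on few cells was not tested. The share order did not rest on 1 cell, although neighbouring shares have intervals that meet.

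The Spp1 difference was also present with group sizes held equal. At equal depth the macrophage log2 ratio was 3.92 with each library's own mix of groups and 3.34 with the TAC groups weighted as in sham. For the other members that pair of values was 0.65 and 0.69 for Trem2, 0.97 and 0.79 for Cd9, 0.53 and 0.30 for Lgals3, 0.28 and 0.41 for Cd63, 0.22 and 0.34 for Apoe and -0.64 and -0.55 for Lpl. Signs were the same under both weightings for these 7 genes.

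Trem2 was higher in TAC in each of the 4 larger groups, by 1.71-fold in Timd4, 1.88-fold in Ccr2 and 1.41-fold in MHC class II low cells, and from 232 CPM to 347 CPM in MHC class II cells. Its TAC levels ran from 315 CPM in Ccr2 (299 to 332) to 447 CPM in MHC class II low cells (412 to 484), with Timd4 cells at 410 CPM (358 to 467). Cd9 was lowest in Timd4 cells, 107 CPM in sham (91.0 to 125) and 161 CPM in TAC (130 to 198), and differed most in MHC class II low cells, from 171 CPM (136 to 211) to 351 CPM (320 to 384), 2.05-fold (1.63 to 2.62). Trem2 and Cd9 were thus higher in TAC within every one of these groups.

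Of the 4 larger groups, Ccr2 cells had the highest Lgals3, with 399 CPM in sham (364 to 436) and 525 CPM in TAC (504 to 546), and in Timd4 cells the sham and TAC intervals met at 223 CPM (200 to 248) and 201 CPM (165 to 242). Cd63 and Apoe were lowest in Ccr2 cells in both libraries. Cd63 there was 288 CPM in sham (259 to 320) and 507 CPM in TAC (487 to 528), 1.76-fold higher (1.57 to 1.97). Apoe in Ccr2 cells was 10123 CPM in sham (9945 to 10304) and 14350 CPM in TAC (14240 to 14461), against 19917 and 21592 CPM in Timd4 cells. Lpl was 2.52-fold lower in TAC in MHC class II cells (2.16 to 2.94), at 198 CPM in sham and 78.5 CPM in TAC, and 1.94-fold lower in MHC class II low cells (1.45 to 2.58). In Timd4 cells its intervals met, at 130 CPM (197 UMIs) and 123 CPM (68 UMIs).

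**Figure D5:**
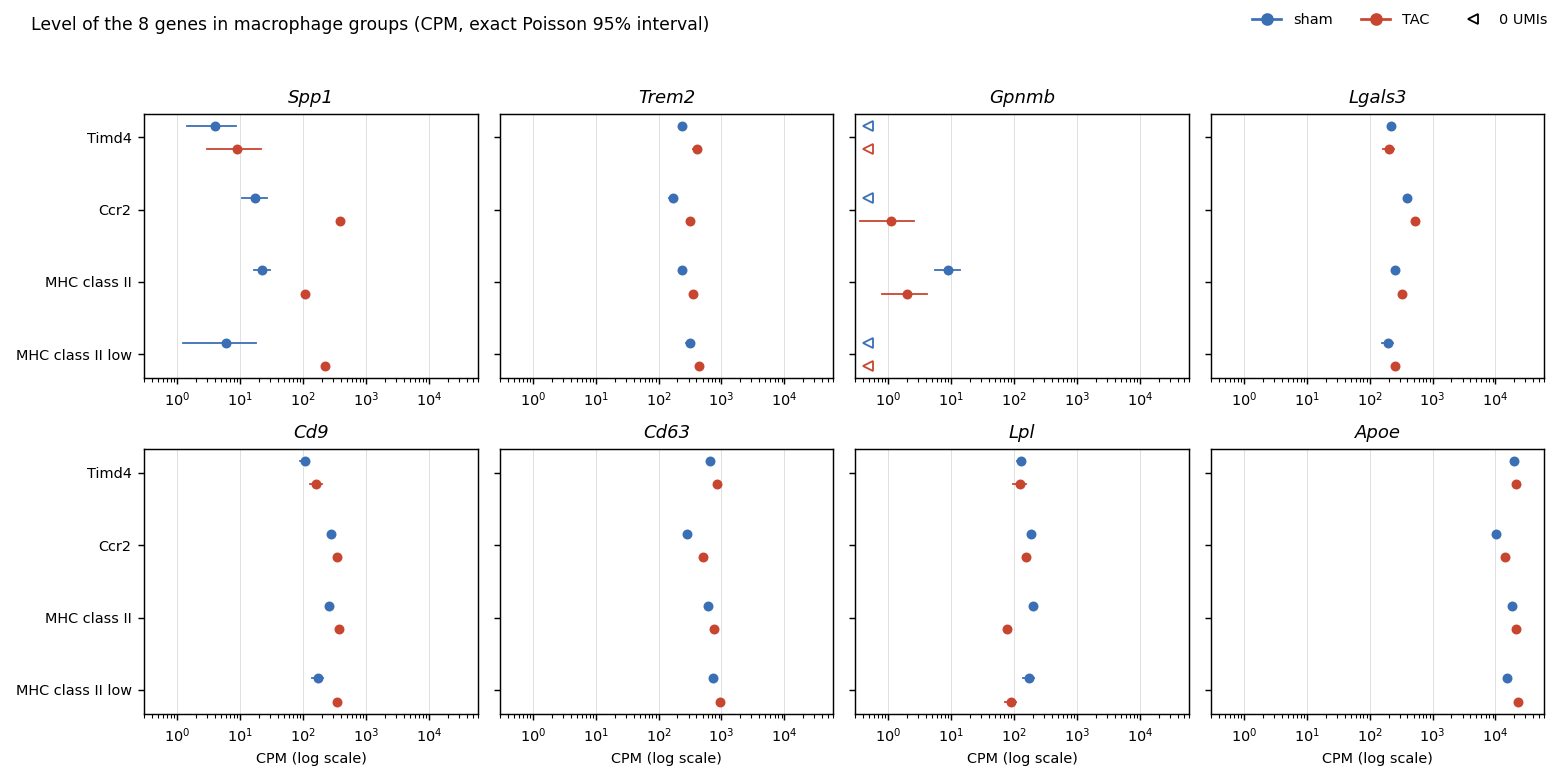
Level of each gene (x axis, CPM, log scale) in 4 macrophage groups of the sham and TAC libraries with exact Poisson 95% intervals; open triangles mark 0 UMIs. Spp1 stays near 10 CPM or under in Timd4 cells and exceeds 100 CPM in the other TAC groups, where the Ccr2 point includes 1 cell with 1368 UMIs.

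The members were not all found in the same macrophages. In the TAC library the 95 macrophages with an Spp1 UMI at equal depth had 621 CPM of Cd9 against 305 CPM in the 647 without, 2.04-fold more (1.88 to 2.20), and 2.07-fold more without the top Spp1 cell (1.91 to 2.24). Trem2 was 415 CPM against 337 CPM, 1.23-fold more (1.12 to 1.34), and Lgals3 439 against 398 CPM, 1.10-fold more. Cd63 was 582 against 683 CPM and Apoe 16757 against 18380 CPM, both lower in the Spp1-positive cells. Of those cells 56.8% were in the Ccr2 group and 1.05% in the Timd4 group, against 36.5% and 6.96% of the cells without Spp1. The median depth was 9198 and 9201 UMIs, so depth did not separate them. Gpnmb was 4.97 against 0.579 CPM, 8.57-fold more (2.34 to 34.3), on the few UMIs that TAC macrophages held of it. By share of cells at equal depth, 67.4% of Spp1-positive and 49.3% of other TAC macrophages had a Cd9 UMI, and 60% and 41.3% had an Lgals3 UMI. Spp1-positive TAC macrophages thus had more Cd9 by level and by share, and more Lgals3 mainly by share.

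Arg1, arginase, and Fn1, fibronectin, both genes of scar macrophages, were also more abundant in the Spp1-positive TAC macrophages. Arg1 was 190 CPM against 13.8 CPM, 13.8-fold more (11.1 to 17.3), and 10.2-fold more without the top Spp1 cell (8.03 to 12.9), yet only 4.21% of the Spp1-positive cells had an Arg1 UMI at equal depth against 0.773% of the others. Fn1 was 210 against 81.1 CPM, 2.59-fold more (2.25 to 2.97), and 1.92-fold without that cell (1.64 to 2.24). In the sham library only 18 cells had Spp1. Without the top sham cell the other 17 had 441 CPM of Lgals3 against 256 CPM (1.72-fold, 1.29 to 2.26) and 351 CPM of Cd9 against 202 CPM (1.74-fold, 1.25 to 2.36), while Apoe was 9118 against 16522 CPM. Without the top TAC cell, Lgals3 in TAC was 430 against 398 CPM, with a ratio interval of 0.988 to 1.18 that includes no change. The Apoe ratio without the top cells was 0.939 in TAC and 0.552 in sham. Higher Cd9 and lower Apoe beside Spp1 were therefore seen in both libraries, in counts that are sparse in sham. For the Lgals3 level without the top cells this held beyond counting error in sham only.

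Trem2 and Spp1 overlapped loosely from cell to cell. In TAC, 14.6% of the 466 Trem2-positive cells and 9.78% of the 276 others had Spp1 at equal depth, with Spp1 at 141 and 403 CPM, the latter including the top cell. Apoe was 20019 CPM in Trem2-positive and 15398 CPM in Trem2-negative TAC cells, and 17532 against 15276 CPM in sham. Cd63 was 713 against 603 CPM in TAC and 584 against 515 CPM in sham. Cd9 was 343 against 359 CPM in TAC, with a ratio interval of 0.893 to 1.02. Trem2-positive cells thus had more Apoe and Cd63 in both libraries, as descriptions of sparse counts within 1 library each.

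Companion genes of the same pathways were counted in macrophages among those at 10 CPM or more, where 2.73% of 8108 genes were at least 2-fold higher in TAC and 1.85% at least 2-fold lower. Of 6 measured osteopontin receptors 1 was higher, the integrin subunit Itgb5, at 126 and 267 CPM (2.11-fold, 1.95 to 2.29). Itgav was 1.47-fold and Itga4 1.22-fold higher, and the interval of Itga9 included no change. The list's median log2 ratio was 0.24. Of 8 TREM2 signalling partners none passed 2-fold. The phospholipase Plcg2 was 1.82-fold higher (1.54 to 2.15), the adaptor Hcst 1.68-fold and the phosphatase Inpp5d 1.59-fold, with a list median of 0.36. Of 4 apolipoprotein E receptors Sorl1 was higher, at 15.1 and 37.9 CPM (2.51-fold, on 96 and 384 UMIs), with a list median of 0.65. Lsr was 1.93-fold and Lrp1 1.32-fold higher.

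The lipid genes did not share a direction. Of 16 genes of lipid uptake, storage and efflux none was at least 2-fold higher and 1 was lower, the scavenger receptor Cd36, at 324 CPM in sham (2055 UMIs) and 99.9 CPM in TAC (1011 UMIs), 3.24-fold lower (3.01 to 3.50). The median of the list was 0.10, with Pparg 1.54-fold and Dgat1 1.38-fold higher in TAC. Acat1, also on the list, was 1.31-fold lower, but it encodes a mitochondrial acetyl-CoA acetyltransferase, not a lipid storage enzyme. Soat1, which encodes the cholesterol-esterifying enzyme, was 1.30-fold higher (1.12 to 1.51). Of the lipoprotein lipase system only Sel1l and Lmf1 were measured, at 1.10-fold and 1.08-fold with intervals that include no change. Of 19 MiT/TFE factors and lysosomal genes none passed 2-fold in either direction, with a median of 0.05. The cathepsin Ctsz was 1.46-fold and Psap 1.38-fold higher, and Tfec was 1.69-fold lower.

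Other tetraspanins had a median of -0.12, and none of 10 passed 2-fold. Tspan3 was 1.61-fold lower in TAC, Cd81 1.34-fold and Tspan4 1.33-fold lower, and Tspan13 was 1.22-fold higher, so the list had no single direction. Of 3 other galectins none passed 2-fold, with Lgals9 1.41-fold higher and the intervals of Lgals1 and Lgals8 including no change, at a median of -0.06. Of 15 other scar macrophage genes 3 were higher, with a list median of 0.11. These were Arg1 at 5.68 and 38.2 CPM (6.73-fold, 4.78 to 9.76), the integrin Itgax at 9.30 and 20.7 CPM (2.23-fold, 1.66 to 3.03) and Fn1 at 47.8 and 98.5 CPM (2.06-fold, 1.81 to 2.35). The TAC macrophage richest in Spp1 held 80 of the 387 TAC Arg1 UMIs and 87 of the 997 TAC Fn1 UMIs. The Fn1 call, close to 2-fold, rested on that cell. Mmp14, a matrix metalloproteinase, was 1.93-fold higher (1.32 to 2.90). The 7 members at 10 CPM or more had a median of 0.53.

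Likeness of pattern was taken as Pearson's r of log2(CPM + 10) over 18 class-by-library profiles, which share libraries and cell gates. Trem2 was most like Ms4a7 (0.97), Kcnk13 (0.96) and Lilra5 (0.96), and Lgals3 most like Myo1f (0.98), Plbd1 (0.97) and Fcer1g (0.96), the last of which is a gate marker. Among the 3 genes closest to Spp1 were Bcl2a1d (0.77) and P2rx7 (0.77). Cd9 was most like Mtmr6 (0.89), Piezo1 (0.88) and Klf10 (0.88), Cd63 like Ctsl (0.89), Tspan3 (0.87) and Acaa1a (0.86), Apoe like Tgfbr1 (0.88), Pla2g15 (0.83) and Ifi207 (0.82), and Lpl like Gstm2 (0.86), Gata4 (0.82) and Slc35f5 (0.80). Gpnmb was under the 50 CPM minimum in every profile. Among the members themselves the highest values were 0.70 for Trem2 and Apoe, 0.66 for Spp1 and Trem2, 0.65 for Trem2 and Lgals3 and 0.65 for Spp1 and Lgals3, and the lowest was -0.53 for Lpl and Lgals3. For Gpnmb the highest was 0.50, with Cd63, and for Lpl 0.47, also with Cd63.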

How the data were processed

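Droplet 3′ RNA libraries, 1 sham and 1 TAC, were deposited as whole UMI counts for genes and barcodes. Per the file headers, Cell Ranger 3.1.0 made them. The build was mm10 and Seurat was used, per the submitters' processing notes; the annotation and Seurat's role are not stated there. Barcodes with at least 500 genes, 1000 UMIs and at most 15% mitochondrial UMIs were kept: 7964 of 8426 sham (median 4895.5 UMIs) and 8000 of 8901 TAC (11237). The libraries held 42490230 and 96003109 UMIs.

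Names of cells were rebuilt by gates on marker UMIs per 10000 in each cell (40 for phagocytes, 20 for C1q, 60 for fibroblasts, 20 for vascular endothelium); the authors' names were not used, and differences from other work can come from that. No member gated a class. In the sham library 47 cells and in the TAC library 27 lay within 1.5-fold of the phagocyte limit, and 6 and 9 near the C1q limit. No doublet caller was run: 315 sham and 532 TAC cells past gates of 2 lineages were left out as mixed, and doublets of 1 lineage remain. B cells and T or NK cells past the phagocyte limit but under the C1q limit were not counted as mixed and stayed in their class.

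Sums per class gave CPM with exact Poisson intervals and ratios with exact conditional intervals; log2 ratios used CPM + 1, a floor of 3 counts bounded zeros, and 2-fold at 50 CPM or more in either library (10 for companion lists) was called. Ratios of classes needed 70 cells per library and those of macrophage groups 20; cells with and without Spp1 or Trem2 were compared without a minimum. Shares (Clopper-Pearson) and macrophage groups used cells thinned to 3200 UMIs; MHC class II cells had at least 30 such UMIs per 10000. With 1 library per group no p-value was computed, and intervals cover counting error only. The interval step was tested on simulated Poisson sums, the form the intervals assume. UMIs clumped in few cells, as for Spp1, were not simulated. Named genes were the 8 members, up to 4 of each companion list with the largest ratios at 10 CPM or more, and the 3 genes most like each member. Arg1 and Fn1 in Spp1-positive cells fall under the same lists. Soat1, outside that rule, is named to set it apart from Acat1. Lists covered osteopontin receptors, TREM2 partners, lipid handling, the lipoprotein lipase system, apolipoprotein E receptors, MiT/TFE and lysosome, tetraspanins, galectins and other scar macrophage genes; Clec7a, of the last list, was not analysed here. A few genes that this rule names are not reported here. Members and lists were chosen with earlier results of these data known. Gene positions are from GENCODE vM21 (mm10). Python 3.11.15, NumPy 2.4.6, SciPy 1.17.1 and pandas 2.3.3 were used.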

Additional observations from a re-analysis of the deposited data

Results flagged for a closer look

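Lipoprotein lipase (Lpl) differed in opposite directions in 2 classes. Its log2 ratio TAC/sham was 1.43 in vascular endothelial cells and -1.14 in fibroblasts, a gap of 2.56. Each class is 1 sample per group, and the difference was not tested.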

How the results depend on the processing

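No paired analysis was possible because each group is 1 library, and no replicate could be left out. Leaving out the top cell was chosen after seeing the data. The macrophage log2 ratio of Spp1, 4.02, was 3.78 with mixed cells kept, 3.40 with CPM + 10 and 3.58 without the top cell; under the other 9 settings it ran from 3.91 to 4.10. Genes at least 2-fold apart numbered 130 at 50 CPM and 371 at 10 CPM. Spp1 in TAC cells low in MHC class II was 304 CPM with groups gated on full counts (227 CPM as reported), and in TAC Ccr2 cells 92.4 CPM without the top cell (393 CPM as reported). The cause was not tested for the pseudocount and the mixed cells.

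Macrophage Gpnmb had a log2 ratio of -0.86 as reported and changed sign with the deepest 5% of cells left out (0.91), with each cell counted once (0.46) and without the top cell (0.92). The other 7 genes kept their sign in macrophages under all 12 settings and their side of 2-fold. In vascular endothelium Lpl ran from 1.34 to 2.47 and Cd9 from -1.99 to -1.41, and Lgals3, at 0 to 5 UMIs, changed sign with no cell filter (-0.21). With 1 library per group, effects of surgery and of the library cannot be told apart. TAC cells were deeper, and thinning removed 204 sham and 39 TAC macrophages.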
